A study of Mus musculus with 6 samples.

Results

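Aminoacyl-tRNA synthetases are the enzymes that attach each amino acid to its own tRNA. The 35 synthetase genes described here were taken by name from the 55416 rows of the deposited count table. They comprised 19 genes for enzymes of the cytosol and 16 for enzymes of the mitochondrion. The RNA-seq experiment compared WT and Oct6 KO EpiLCs, the epiblast-like cells that stand for formative pluripotency, with 3 libraries per genotype from total RNA depleted of ribosomal RNA. WT cells were the parental 46C mouse embryonic stem cell line, which carries a GFP reporter driven by Sox1, and KO cells were a single CRISPR/Cas9 clone of that line with a homozygous insertion in the coding sequence of Oct6 (Pou3f1), so that the genotype and the clone cannot be told apart. Both kept the reporter and were moved from 2i + LIF to N2B27 with 1% KSR, bFGF and Activin A on fibronectin for 48 h. The doses of bFGF and Activin A were 12 and 20 ng/ml in the sample labels, while the series description has the same figures in µg/ml. The replicates were paired cultures, 1 WT and 1 KO to a number.

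Every round of translation draws on charged tRNAs, and the cytosol and the mitochondrion charge theirs with largely separate sets of enzymes, all encoded in the nucleus. Glycyl-tRNA synthetase (Gars1) and lysyl-tRNA synthetase (Kars1) are the exceptions, since isoforms of a single gene serve both compartments. When amino acids run short or another stress phosphorylates the initiation factor eIF2, the transcription factor ATF4 is translated and raises genes of amino acid synthesis and transport together with those of many cytosolic synthetases, through composite C/EBP-ATF elements of the form TGATGNAA, where N is any base.

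Library totals ran from 10995505 to 14680930 counts, with normalization factors between 0.974 and 1.02. Counts of Pou3f1, 142 ± 19.4 CPM in WT and 132 ± 7.59 CPM in KO (SD, n = 3), did not separate the genotypes (log2 fold change -0.10, edgeR adjusted p = 0.574). The allele is a small insertion, so that the level of its RNA is no check of the labels. The summed level of 8 formative epiblast-like markers was 3158 to 3521 CPM in WT and 3203 to 3356 CPM in KO, a sum in which Dnmt3b and Pou5f1 weigh most. Of these 8, Otx2 (log2 fold change 0.92), Foxd3 (0.74), Fgf5 (0.65) and Sox2 (0.42) were higher in KO. None was lower at an edgeR adjusted p below 0.1. Dnmt3a (0.22), Dnmt3b (-0.19) and Pou5f1 (-0.19) did not pass, though every KO library lay below every WT library for Pou5f1 and above for Dnmt3a. The 5 naive markers summed to 170 to 176 CPM in WT and 233 to 301 CPM in KO. Of these, Esrrb (15.9 ± 1.06 CPM in WT, 41.7 ± 9.79 CPM in KO) and Zfp42 (122 ± 1.04 and 177 ± 22.6 CPM) were higher, while Klf4 (0.46), Tfcp2l1 (0.10) and Tbx3 (-0.12) did not pass. Endoderm (4 genes), mesoderm (4), trophoblast (3), fibroblast (5) and neural (4) markers summed to 0.746 to 40.2 CPM in any library, and no marker of these lists was at 0 in every library. The part of the naive and formative genes in the differences below was not tested, and in bulk RNA fewer cells of a type and less RNA per cell cannot be told apart.

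All 35 synthetases passed the filter on low counts and were among the 15746 genes tested. In KO EpiLCs 6 cytosolic enzymes were lower (Gars1, Sars1, Iars1, Aars1, Nars1 and Yars1) and none was higher, while 4 mitochondrial enzymes were higher (Yars2, Mars2, Fars2 and Cars2) and none was lower, at an adjusted p below 0.1 by edgeR's quasi-likelihood test. Of all genes tested, 12.5% were lower, 11.8% were higher and 24.3% changed in either direction, so that the 10 of 35 synthetases called were close to the background, whereas 6 of 19 cytosolic enzymes lowered and 4 of 16 mitochondrial enzymes raised lay above the share in each direction. No synthetase reached an absolute log2 fold change of 1. The median log2 fold change, KO against WT, was -0.09 over the cytosolic enzymes, with 16 of 19 below 0, and 0.05 over the mitochondrial enzymes, with 9 of 16 above 0, beside 0.0014 over all genes tested. Without WT library 3 the mitochondrial median was -0.010, and without that library, KO library 1 or KO library 2 the raised mitochondrial enzymes numbered 2. The opposite counts were not tested against each other.

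**Figure D1:**
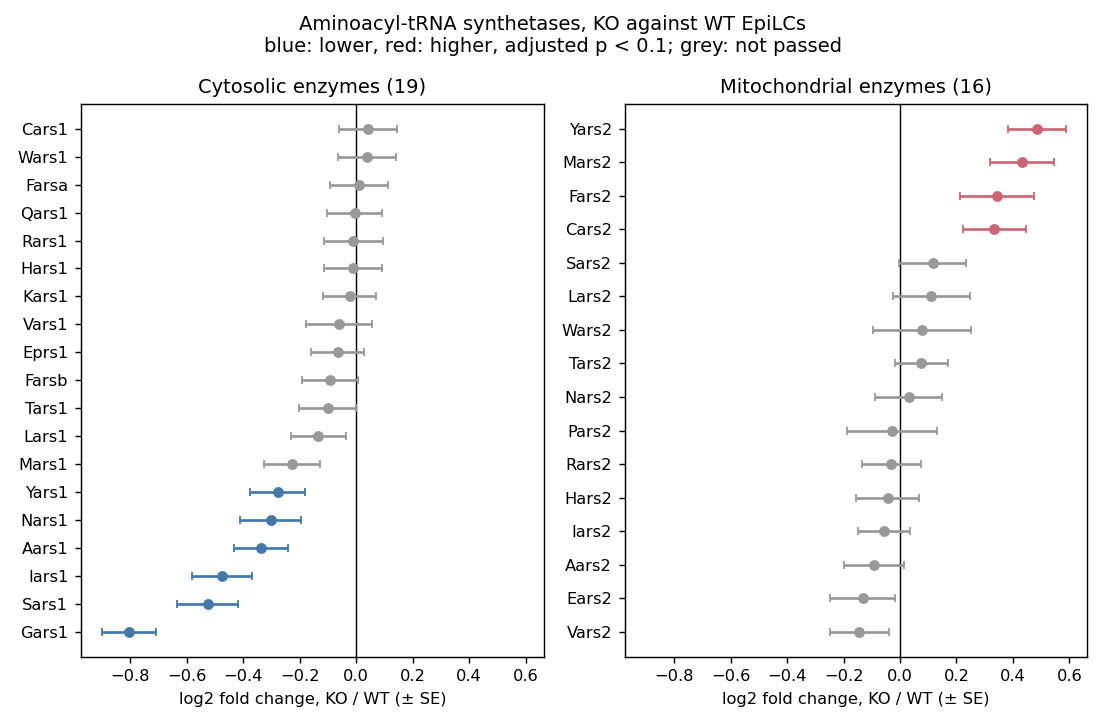
Log2 fold change of each synthetase in KO against WT EpiLCs (horizontal axis), with cytosolic and mitochondrial enzymes in separate panels, bars of 1 SE and colour for an adjusted p below 0.1. The 6 coloured cytosolic enzymes lie at -0.81 to -0.28 and the 4 coloured mitochondrial ones at 0.33 to 0.49.

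The stretches around the starts of 6 cytosolic genes are shown, 5 that hold the element through which ATF4 is known to act (the lowered Aars1, Gars1, Iars1 and Yars1, and Tars1, which did not pass the test) and Sars1, a lowered gene without it. RefSeq windows of 250 bases before to 50 bases after the start were given for 26 of the 35 synthetases (build GRCm38.p6). Each stretch below runs from 120 bases before to 20 bases after the start, 5′ to 3′ on the strand of the gene, and had 1 exact match in GRCm39. Capitals mark TGATGNAA or, where it lies on the opposite strand, its reverse complement. The stretches are Aars1 at chr8:111760354-111760493 (plus strand), Gars1 at chr6:55014866-55015005 (plus), Iars1 at chr13:49835486-49835625 (plus), Yars1 at chr4:129083576-129083715 (plus), Tars1 at chr15:11399725-11399864 (minus) and Sars1 at chr3:108352556-108352695 (minus).
Aars1: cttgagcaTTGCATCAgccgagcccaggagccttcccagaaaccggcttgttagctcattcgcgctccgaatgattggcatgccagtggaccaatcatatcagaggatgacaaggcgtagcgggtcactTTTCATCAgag
Gars1: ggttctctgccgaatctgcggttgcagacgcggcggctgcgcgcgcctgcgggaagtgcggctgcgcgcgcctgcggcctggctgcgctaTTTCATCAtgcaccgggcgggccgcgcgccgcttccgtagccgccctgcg
Iars1: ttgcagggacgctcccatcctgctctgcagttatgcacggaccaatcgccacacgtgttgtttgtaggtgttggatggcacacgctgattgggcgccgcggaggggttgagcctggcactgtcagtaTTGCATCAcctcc
Yars1: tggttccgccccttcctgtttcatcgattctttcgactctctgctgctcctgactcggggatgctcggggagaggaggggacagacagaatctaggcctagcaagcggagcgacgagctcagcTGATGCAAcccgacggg
Tars1: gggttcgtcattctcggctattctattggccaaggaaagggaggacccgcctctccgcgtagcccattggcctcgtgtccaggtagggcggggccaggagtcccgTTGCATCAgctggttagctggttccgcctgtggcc
Sars1: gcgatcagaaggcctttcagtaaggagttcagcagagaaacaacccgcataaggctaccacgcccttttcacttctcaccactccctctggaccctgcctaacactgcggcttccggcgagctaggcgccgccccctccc

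TGATGNAA, searched on both strands of the whole 300-base windows, lay in 5 of 12 cytosolic enzymes (Aars1, Gars1, Iars1, Tars1 and Yars1) and in 0 of 14 mitochondrial enzymes, beside 1304 of all 32851 windows (3.97%). Aars1 held it at 2 places, the first base of the match at -112 and 10 counted from the start, Gars1 at -30, Iars1 at 8, Tars1 at -15 and Yars1 at 4. The stricter spelling TGATGCAAT, which contains the first, was found in Aars1 and Iars1 and in 63 of all windows (0.192%). Among cytosolic enzymes with a window, 4 of the 5 that fell in KO and 1 of the 7 that did not pass the test held TGATGNAA. Sars1 is shown as the lowered gene whose window held no match, which says only that these letters are not in it. Cars1, Hars1, Lars1, Nars1, Rars1, Vars1, Wars1, Hars2 and Pars2 had no window. A match describes the sequence and is not a measured binding site.

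Gars1, which charges tRNA with glycine in both compartments, changed most among the synthetases. Its level was 533, 605 and 533 CPM in WT libraries 1 to 3 and 332, 319 and 306 CPM in KO libraries 1 to 3. Every KO library lay far below every WT library, and the mean fell from 557 ± 41.4 to 319 ± 12.9 CPM (log2 fold change -0.81, SE 0.0955, edgeR adjusted p = 1.08e-05). Gars1 lies on chromosome 6 at chr6:55014927-55061231. The median log2 fold change was -0.40 over the 773 genes tested on that chromosome and -0.51 (quartiles -0.75 and -0.23) over the 90 other genes within 10 Mb. Relative to these neighbours the log2 fold change of Gars1 was -0.29. What moved the neighbours was not tested.

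Sars1, the seryl-tRNA synthetase, was at 157, 205 and 162 CPM in WT and 122, 123 and 119 CPM in KO. The 3 KO values were nearly equal and lay below the lowest WT value, with a log2 fold change of -0.53 (SE 0.108, edgeR adjusted p = 0.00177). Iars1, the isoleucyl-tRNA synthetase, was at 163, 187 and 157 CPM in WT and 138, 112 and 115 CPM in KO. Its groups did not overlap either, and the log2 fold change was -0.48 (SE 0.107, edgeR adjusted p = 0.0036). The median log2 fold change of the neighbours within 10 Mb was 0.0080 for Sars1 and -0.0083 for Iars1.

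Aars1, the alanyl-tRNA synthetase, was at 489, 582 and 503 CPM in WT and 432, 405 and 408 CPM in KO. All KO libraries were lower, by -0.34 on the log2 scale (SE 0.0972, edgeR adjusted p = 0.0188). Exosc6, on the same strand, shares 1326 bases with the exons of the canonical Aars1 transcript and had 0 counts in all libraries, so that reads of the pair could not be told apart. Yars1, the tyrosyl-tRNA synthetase, was at 168, 190 and 169 CPM in WT and 155, 145 and 135 CPM in KO. It fell by 0.28 on the log2 scale without overlap (SE 0.0981, edgeR adjusted p = 0.0538).

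Nars1, the asparaginyl-tRNA synthetase, was at 229, 307 and 281 CPM in WT and 233, 222 and 207 CPM in KO. The first WT library lay within the KO range, and only pairs 2 and 3 had the KO library lower. The log2 fold change was -0.30 (SE 0.109, edgeR adjusted p = 0.059). The calls of Nars1 and Yars1 were the least stable of the lowered enzymes. Nars1 did not pass without WT library 2 or 3 or KO library 2 or 3 (adjusted p up to 0.215), nor Yars1 without WT library 2 or KO library 2 or 3 (adjusted p up to 0.202).

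**Figure D2:**
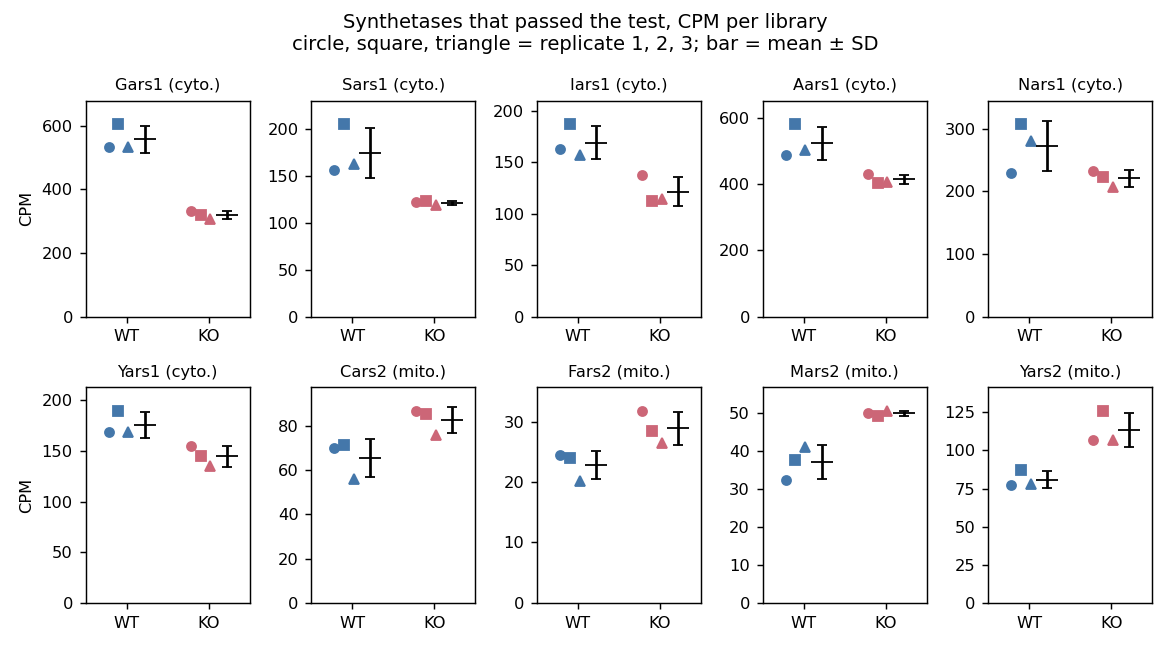
CPM in each library (vertical axis from 0, one panel per gene) for the 10 synthetases that passed the test, with symbols for replicates 1, 2 and 3 and a bar for the mean ± SD. WT and KO values are separate in every panel except that of Nars1, where WT replicate 1 (229 CPM) lies below KO replicate 1 (233 CPM).

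The other 13 cytosolic enzymes did not pass, with log2 fold changes from -0.23 (Mars1) to 0.04 (Cars1) and standard errors of 0.0935 to 0.118. Of these, 10 were below 0 and 3 above. Mars1, the methionyl-tRNA synthetase that also charges the initiator tRNA, was nearest to a call. It was at 180, 202 and 172 CPM in WT and 170, 154 and 149 CPM in KO, every KO library being lower (edgeR adjusted p = 0.127). With the pairing of the cultures as a block in the fit, Mars1 passed (log2 fold change -0.23, edgeR adjusted p = 0.0587) and the lowered cytosolic enzymes numbered 7. In all, every KO library lay below every WT library in 6 cytosolic enzymes (Aars1, Gars1, Iars1, Mars1, Sars1 and Yars1), against 17.1% of all genes tested, and above in none, against 16.6%.

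Kars1, the lysyl-tRNA synthetase, had the highest level per length of the cytosolic enzymes and Cars1, the cysteinyl-tRNA synthetase, the lowest. Levels between genes are given as TPM over protein-coding genes, with the length of the canonical transcript of each gene. Kars1 was at 695 ± 31.4 TPM in WT and 680 ± 13.3 TPM in KO, with counts of 650, 699 and 603 CPM in WT and 625, 659 and 636 CPM in KO (log2 fold change -0.02, SE 0.0939, edgeR adjusted p = 0.905). Gars1 came next in both genotypes, at 585 ± 25 TPM in WT and 333 ± 17.7 TPM in KO. It made up 13.3% of the summed cytosolic level in WT and 8.70% in KO, while Kars1 made up 15.8% and 17.8%. Cars1 was at 47.6 ± 2.26 TPM in WT and 48.8 ± 5.79 TPM in KO (log2 fold change 0.04, SE 0.103, edgeR adjusted p = 0.827).

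Among the mitochondrial enzymes that rose, Yars2, the mitochondrial tyrosyl-tRNA synthetase, changed most. It was at 77.0, 87.3 and 78.2 CPM in WT and 107, 126 and 107 CPM in KO, with all KO libraries above all WT libraries (log2 fold change 0.49, SE 0.103, edgeR adjusted p = 0.00235). Yars2 lies on chromosome 16 at chr16:16120366-16157367. The median log2 fold change was 0.55 over the 471 genes tested on chromosome 16 and 0.54 over the 169 other genes within 10 Mb, which left Yars2 at -0.06 relative to its neighbours. In addition, 3391 bases of its canonical exons (50.3%) overlap Dnm1l, a gene of mitochondrial fission on the opposite strand, whose own log2 fold change was 0.68 (SE 0.106, edgeR adjusted p = 1.55e-04). The libraries were stranded, but the use of the strand in counting was not given in the sources used here, so that the share of Dnm1l reads in the Yars2 counts was not tested.

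Mars2, the mitochondrial methionyl-tRNA synthetase, was at 32.2, 37.5 and 41.1 CPM in WT and 49.8, 49.1 and 50.5 CPM in KO. The KO libraries were close to each other and above all WT libraries (log2 fold change 0.43, SE 0.115, edgeR adjusted p = 0.0113), and Mars2 kept its call when any single library was left out. Cars2, the mitochondrial cysteinyl-tRNA synthetase, was at 69.7, 71.2 and 55.7 CPM in WT and 86.8, 85.2 and 75.6 CPM in KO. The groups were separate by a narrow margin (log2 fold change 0.33, SE 0.112, edgeR adjusted p = 0.0426). Without WT library 3, KO library 1 or KO library 2 the adjusted p of Cars2 was 0.179, 0.154 and 0.130. Cars2 shares 796 exonic bases with Naxd on the opposite strand, whose log2 fold change of 0.18 did not pass (edgeR adjusted p = 0.294).

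Fars2, the mitochondrial phenylalanyl-tRNA synthetase, was at 24.4, 23.9 and 20.2 CPM in WT and 31.8, 28.4 and 26.5 CPM in KO. All KO values were higher, by 0.34 on the log2 scale (SE 0.131, edgeR adjusted p = 0.0782). The call was lost in 4 of the 6 fits that left out a library (without WT library 2 or 3 or KO library 1 or 2, adjusted p up to 0.279) and with DESeq2 (adjusted p = 0.113). The other 12 mitochondrial enzymes did not pass, with log2 fold changes from -0.14 (Vars2) to 0.12 (Sars2) and standard errors of 0.0923 to 0.173. The KO libraries were all above the WT libraries in Cars2, Fars2, Mars2, Tars2 and Yars2 and all below them in Aars2 and Ears2, 5 and 2 of 16 enzymes, beside 16.6% above and 17.1% below among all genes tested.

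Tars2, the mitochondrial threonyl-tRNA synthetase, had the highest level per length of the mitochondrial enzymes and Wars2, the tryptophanyl one, the lowest. Tars2 was at 94.4 ± 5.73 TPM in WT and 98.8 ± 4.13 TPM in KO, from 97.7, 90.8 and 91.4 CPM in WT and 98.5, 98.1 and 98.4 CPM in KO (log2 fold change 0.08, SE 0.0937, edgeR adjusted p = 0.648). Iars2 (81.2 ± 2.23 TPM in WT) and Rars2 (66.6 ± 5.58 TPM) followed. Wars2 was at 5.89 ± 1.28 TPM in WT and 6.17 ± 0.251 TPM in KO, which corresponds to 13.7, 9.58 and 10.1 CPM in WT and 11.5, 11.9 and 12.0 CPM in KO (log2 fold change 0.08, SE 0.173, edgeR adjusted p = 0.817). The next lowest was Mars2, at 8.34 ± 1.08 TPM in WT, whose annotated canonical transcript is 11294 bases long, so that its level per length rests on that annotation.

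Summed over the class, cytosolic synthetases stood at 5301, 5932 and 5360 CPM in WT and 5006, 4862 and 4679 CPM in KO. All KO sums were below all WT sums, and the mean was 5531 ± 349 CPM in WT and 4849 ± 164 CPM in KO, a difference of -12.3%, or -8.92% with Gars1 left out. The 6 lowered enzymes together went from 1874 ± 179 to 1342 ± 62.6 CPM (-28.4%). Mitochondrial synthetases stood at 835, 858 and 806 CPM in WT and 897, 902 and 878 CPM in KO, all KO sums being above all WT sums. Their mean was 833 ± 26.1 CPM in WT and 892 ± 12.9 CPM in KO, a difference of 7.14%, or 3.61% without Yars2.

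Per length, the cytosolic sum stayed separate between genotypes, at 4391 ± 146 TPM in WT and 3824 ± 170 TPM in KO. The mitochondrial sum did not, at 538, 515 and 519 TPM in WT and 562, 525 and 551 TPM in KO. Its separation therefore held for CPM and not for TPM, which weigh the members differently. The ratio of the summed cytosolic to the summed mitochondrial TPM was 8.004, 8.85 and 8.30 in WT and 7.15, 7.03 and 6.84 in KO, with no overlap. The mean ratio was 8.39 ± 0.430 in WT and 7.01 ± 0.156 in KO, or 0.835 of the WT value. With the coding length in place of the transcript length the ratios were 5.62 ± 0.258 and 4.48 ± 0.113, or 0.797 of the WT value. Both versions include Gars1 and Yars2, which made up 13.3% of the cytosolic and 5.83% of the mitochondrial TPM in WT. These genes lie on chromosomes 6 and 16, with median log2 fold changes of -0.40 and 0.55. The ratio was not computed without them. These sums describe the members and carry no test. Within pairs 1, 2 and 3, the median log2 difference over the cytosolic enzymes was -0.01, -0.16 and -0.18. That over the mitochondrial enzymes was -0.01, 0.03 and 0.13. The first pair had the smallest cytosolic difference, and its mitochondrial median lay below 0, opposite to the other pairs.

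**Figure D3:**
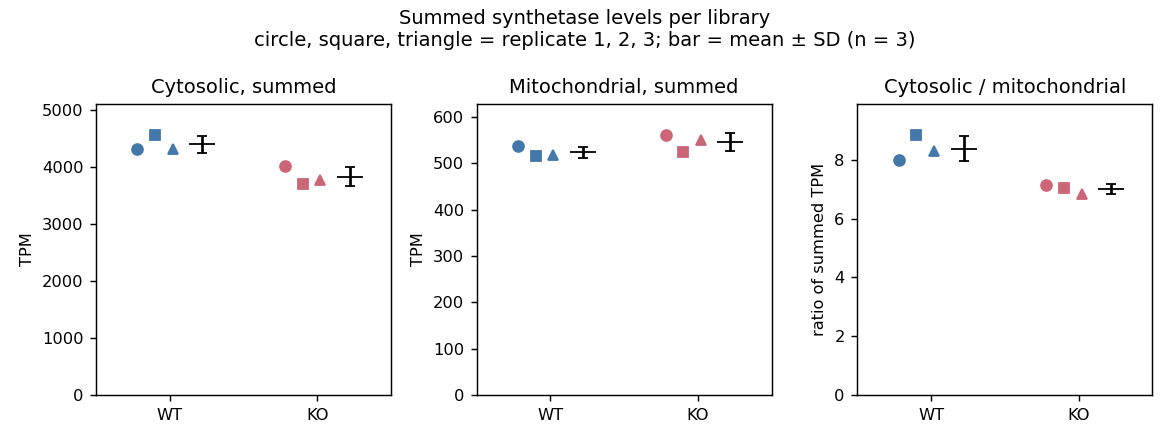
Summed TPM of the 19 cytosolic and of the 16 mitochondrial synthetases and the ratio of these sums, per library (vertical axes from 0), with symbols for replicates 1, 2 and 3 and a bar for the mean ± SD. KO libraries lie below WT for the cytosolic sum (3691 to 4015 against 4306 to 4559 TPM) and for the ratio (6.84 to 7.15 against 8.004 to 8.85), and overlap with WT for the mitochondrial sum (525 to 562 against 515 to 538 TPM).

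Setting each cytosolic enzyme beside the mitochondrial enzyme for the same amino acid gave 17 pairs over 16 amino acids. Eprs1, which charges both glutamate and proline, and Fars2, which stands beside both subunits of the cytosolic phenylalanyl enzyme (Farsa and Farsb), each entered 2 pairs. In WT the cytosolic level per length exceeded the mitochondrial one in all 17 pairs, the mean ratio running from 1.20 (Iars1 to Iars2) to 20.0 (Nars1 to Nars2) with a median of 8.38. The ratio was lower in every KO library than in every WT library in 9 pairs, higher in 1 (Eprs1 to Ears2) and overlapping in 7. Single genes tested were separate in this way in 17.1% (KO below) and 16.6% (KO above), and no such share was computed for ratios. The 9 pairs include both that share Fars2, whose call was lost in several fits that left out a library. The cytosolic log2 fold change was below the mitochondrial one in 13 pairs and above it in 4.

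The tyrosyl pair differed most. Yars1 to Yars2 was 5.07, 5.04 and 5.002 in WT and 3.36, 2.66 and 2.93 in KO, a gap of -0.76 between the log2 fold changes in which the chromosome 16 position of Yars2 enters. The methionyl pair, Mars1 to Mars2, was at 21.5, 20.7 and 16.1 in WT and 13.1, 12.0 and 11.4 in KO (gap -0.66). The seryl pair, Sars1 to Sars2, was at 3.69, 5.82 and 4.65 in WT and 3.04, 2.99 and 2.91 in KO (gap -0.64). In all of these pairs no KO ratio reached the lowest WT ratio. Per length the isoleucyl pair crossed unity, since Iars1 to Iars2 was 1.14, 1.32 and 1.15 in WT and 0.989, 0.874 and 0.829 in KO. The crossing rests on the transcript lengths. In CPM Iars1 was already below Iars2 in WT libraries 1 (163 against 181) and 3 (157 against 174). In addition, 2154 exonic bases of Iars2 (38.4%) overlap Rab3gap2 on the opposite strand, and the share of Rab3gap2 reads was not tested. The histidyl pair, whose genes Hars1 and Hars2 start head to head and share 195 exonic bases, overlapped between genotypes at 6.41 ± 0.649 and 6.54 ± 0.550.

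**Figure D4:**
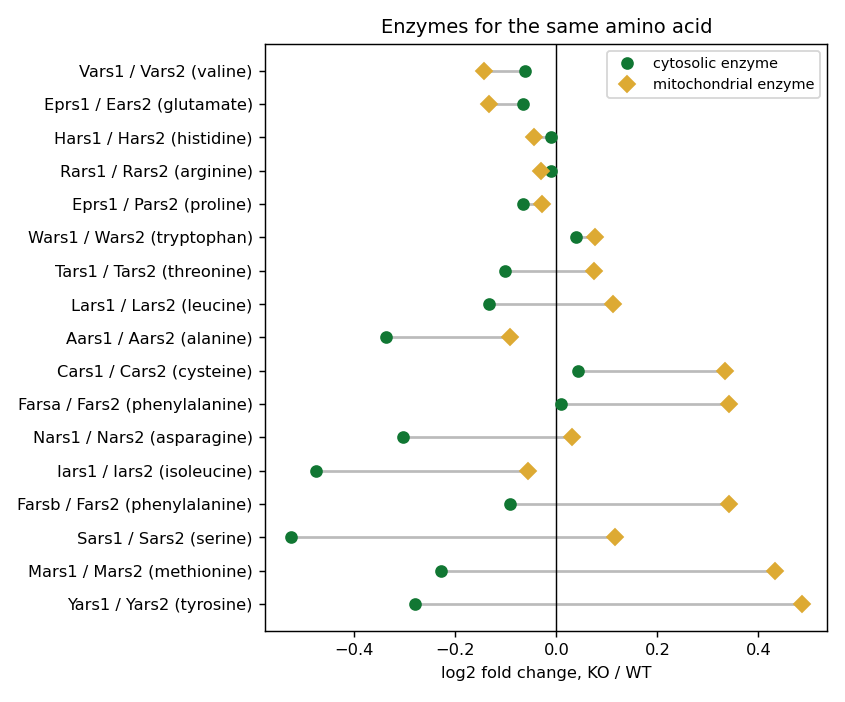
Log2 fold change of the cytosolic enzyme and of the mitochondrial enzyme for the same amino acid, KO against WT, for the 17 pairs. The cytosolic value is the lower in 13 pairs, with the widest gap for tyrosine (-0.28 against 0.49).

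The lowered cytosolic enzymes did not share a structural class or a complex. Synthetases fall into class I and class II by the fold of their catalytic domain, and in animals several cytosolic ones are held in a multi-synthetase complex. Of the 7 enzymes of the complex (Eprs1, Iars1, Kars1, Lars1, Mars1, Qars1 and Rars1), Iars1 fell and 6 did not pass, while 5 of the 12 free enzymes fell. Of 9 cytosolic enzymes in class I, 2 fell, and of 9 in class II, 4 fell, with Eprs1 belonging to both and counted in neither. Of 9 mitochondrial enzymes in class I, 3 rose, and of 7 in class II, 1 rose. The scaffold proteins of the complex did not pass (Aimp1, Aimp2 and Eef1e1, log2 fold changes 0.01 to 0.17). Of all genes tested 12.5% were lower and 11.8% higher, and the counts of 1 of 7 lie near these shares. The difference between these groups was not tested.

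Few genes of the steps that follow charging passed, while 24.3% of all genes tested changed in either direction. None of the 5 cytosolic elongation factor genes passed (Eef1a1, Eef1b2, Eef1d, Eef1g and Eef2, log2 fold changes -0.10 to 0.15), nor any of the 3 subunits of the mitochondrial glutamyl-tRNA amidotransferase or the 7 editing and proofreading genes. Of 10 mitochondrial translation factors 1 was higher (Tufm, the mitochondrial elongation factor Tu), no larger a share than the 11.8% of all genes tested. Tufm was at 75.5, 72.6 and 66.3 CPM in WT and 95.0, 86.6 and 78.5 CPM in KO. Its KO libraries lay above its WT libraries (log2 fold change 0.28, SE 0.104, edgeR adjusted p = 0.0712), and the other 9 did not pass.

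The ATF4 programme, to which the cytosolic synthetases are known to respond, is a list of 24 genes written with earlier results of these data known, and its direction is therefore not independent evidence. In KO EpiLCs 15 of the 24 were lower, 1 (Sesn2, log2 fold change 0.31) was higher and 8 did not pass, beside 12.5% lower and 11.8% higher among all genes tested, with a median log2 fold change of -0.57. Atf4 itself was at 263, 299 and 243 CPM in WT and 137, 119 and 110 CPM in KO, clearly separate (log2 fold change -1.14, SE 0.109, edgeR adjusted p = 9.71e-07). The cystine transporter Slc7a11 went from 13.0 ± 2.43 to 2.95 ± 0.816 CPM (log2 fold change -2.15, edgeR adjusted p = 3.36e-06). Mthfd2, an enzyme of mitochondrial folate metabolism (log2 fold change -1.03), and Asns, the asparagine synthetase (-0.72), also fell, and both lie on chromosome 6. TGATGNAA lay in the windows of 7 of the 22 programme genes that had one (31.8%). Whether the 6 lowered synthetases and the programme share a control was not tested.

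**Figure D5:**
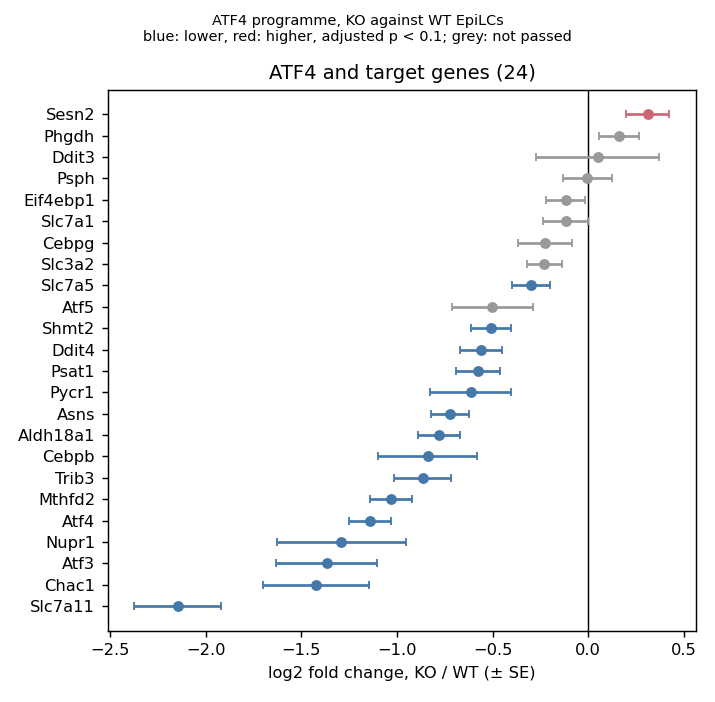
Log2 fold change, KO against WT (horizontal axis), of the 24 genes of the ATF4 programme, with bars of 1 SE and colour for an adjusted p below 0.1. The 15 lowered genes run from -0.30 (Slc7a5) to -2.15 (Slc7a11), and Sesn2 (0.31) is the only one that rose.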

How the data were processed

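RNA was measured in 3 WT and 3 KO libraries, grouped by the genotype in the labels. The deposited values were raw counts per gene, 1 column per library, made by the authors with FastQC, Fastp and STAR in two-pass mode on GRCm39 from stranded libraries. The annotation release and the use of the strand in counting were not given in the sources used here. All 6 columns were used (0 left out). Of 55416 identifiers 54749 matched GENCODE M39, and the 667 others held 0.0602% of counts.

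Genes were tested in R 4.3.3 with edgeR 4.0.16 (TMM, filterByExpr with a minimum count of 10, quasi-likelihood test with genotype as the only term, Benjamini-Hochberg adjustment over all 15746 genes, adjusted p below 0.1). CPM use TMM-scaled library sizes. The common dispersion was 0.0137, a biological coefficient of variation of 11.7%. p-values measure the spread between cultures within each genotype, for 1 clone and its parent, and the main fit did not use the pairing. The scripts were tested on simulated counts. Alternatives were DESeq2 1.42.0, RLE factors, library totals, other filters and thresholds, a replicate block, leaving out each library, and centring on the chromosome. Centring within 10 Mb, the coding length and the grouping by class and complex were chosen after seeing the data. The series description, though not the paper, calls the replicates paired. Same-numbered libraries deviated together (correlations 0.122 to 0.298 over 13078 genes, against -0.233 to -0.0379 for other numbers).

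The members and lists were chosen with earlier results of these data known. Named are all members that passed, the highest and lowest per length in each class, and up to 4 passing genes of each other list. Mars1, Sesn2, the genes overlapping members, Iars2, Rars2 and other members of the enzyme pairs were named after their values were seen. Promoter windows came from RefSeq. Results of 1 further list are not reported here.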

Additional observations from a re-analysis of the deposited data

How the results depend on the processing

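When a log2 fold change of 1 or more in size was also required, 459 genes were higher and 519 lower, with 0 cytosolic enzymes lower and 0 mitochondrial enzymes higher. Leaving out each library gave 4 to 6 lowered cytosolic and 2 to 4 raised mitochondrial enzymes, with 2 without WT library 3, KO library 1 or KO library 2. The mitochondrial median ran from -0.010 (without WT library 3) to 0.067 and the cytosolic one from -0.12 to -0.050. With the replicate block 7 cytosolic enzymes were lower and 4 mitochondrial ones higher, 2357 genes of all were higher and 2407 lower, and among the synthetases the block changed only the call of Mars1. Library totals gave Mars1 an adjusted p of 0.0828 and Fars2 one of 0.109, and no filter gave Fars2 0.130. Cytosolic enzymes higher and mitochondrial enzymes lower stayed at 0 under each alternative run.

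Yars2 changed sign relative to its chromosome (-0.064) and to genes within 10 Mb (-0.058). The other reversals were in enzymes near 0 that did not pass. They were Farsa with library totals (-0.015), Kars1 (0.018) and Rars1 (0.0086) relative to the chromosome, and Kars1 (0.076), Qars1 (0.013), Vars1 (0.026), Aars2 (0.017) and Nars2 (-0.026) relative to genes within 10 Mb. Leaving out a library moved across 0 the values of Cars1 (-0.046 to 0.10), Qars1 (-0.079 to 0.030), Rars1 (-0.066 to 0.095), Nars2 (-0.028 to 0.12), Rars2 (-0.081 to 0.019), Hars1 (-0.067 to 0.063), Kars1 (-0.077 to 0.025), Pars2 (-0.14 to 0.11), Wars2 (-0.022 to 0.25), Farsa (-0.074 to 0.061), Wars1 (-0.021 to 0.11) and Vars1 (-0.20 to 0.076). The cause of these shifts was not tested. Of 140 alternative values for the 10 called enzymes, 17 lost the call and 2 reversed. The other 121 kept their direction and, where a test was run, their call. Values centred on the chromosome or within 10 Mb carry no test and were judged by direction alone. Standard errors of 0.0923 to 0.173 over the 35 members limit what a value near 0 can show.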

Other observations

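Among genes that make or move the tRNAs on which the synthetases act, a gene of each of 2 lists was lower in KO EpiLCs. The lists held 4 and 5 genes, and 12.5% of all genes tested were lower. Trnt1, which adds the CCA end to tRNAs, was at 222, 222 and 287 CPM in WT and 211, 194 and 175 CPM in KO, with no overlap (log2 fold change -0.34, SE 0.113, edgeR adjusted p = 0.0441). Xpot, the tRNA exportin, did not pass (-0.21, adjusted p = 0.161), nor did the tRNA 3′ processing genes Elac1 and Elac2. Eefsec, the elongation factor that delivers selenocysteine tRNA, was at 36.3, 33.7 and 36.9 CPM in WT and 26.2, 24.6 and 28.4 CPM in KO (log2 fold change -0.43, SE 0.118, edgeR adjusted p = 0.0135), and the other 4 selenocysteine genes did not pass. Trnt1 and Eefsec both lie on chromosome 6, whose median log2 fold change was -0.40.

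Of 6 genes that set the phosphorylation of eIF2, the 4 kinases (Eif2ak1, Eif2ak2, Eif2ak3 and Eif2ak4) did not pass, with log2 fold changes from -0.19 to 0.10. Both regulatory subunits of the eIF2 phosphatase were lower in every KO library than in every WT library, as was Eif2ak3. Eif2ak3 (-0.19) lies on chromosome 6, whose median log2 fold change was -0.40. Of all genes tested 12.5% were lower, and in 17.1% every KO library lay below every WT library. Ppp1r15a, which is induced by stress, went from 25.9 ± 4.22 to 18.1 ± 1.93 CPM (log2 fold change -0.52, edgeR adjusted p = 0.0164). Ppp1r15b, the constitutive subunit, went from 177 ± 14.6 to 146 ± 1.44 CPM (log2 fold change -0.28, edgeR adjusted p = 0.0462).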
